A study of Mus musculus with 4 samples.

Results

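The genes described here are 10 components of insulin signalling and its atrophy branch: the receptors Insr and Igf1r, the substrates Irs1 and Irs2, the kinase subunit Pik3r1, the transcription factors Foxo1, Foxo3 and Foxo4, and the ubiquitin ligases Fbxo32 and Trim63. They were chosen by gene name, and each of the 10 names matched a single row among the 48432 gene rows of the table. The table came from cardiomyocytes freed from mouse hearts by Langendorff perfusion, in a study of RBFOX2 overexpression in myotonic dystrophy. The MHC control group (2 libraries, genotype MHC) and the Rbfox2 OE group (2 libraries, genotype RbFox2) were both of C57BL x FVB strain, and both had eaten a doxycycline diet for 3 days. The labels give no age and do not spell out the promoter that drives the transgene. The series title says that the overexpressed protein is the non-muscle isoform, and the gene-level table does not separate isoforms.

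Insulin and insulin-like growth factors bind receptor tyrosine kinases, which phosphorylate Irs proteins and so recruit phosphoinositide 3-kinase and activate Akt. Akt phosphorylates FoxO transcription factors and keeps them out of the nucleus. When the signal is weak, FoxO factors enter the nucleus and switch on genes of muscle protein breakdown, of which Fbxo32 (atrogin-1) and Trim63 (MuRF1) are the best known in heart and skeletal muscle. Mis-splicing of the insulin receptor transcript is a classical feature of myotonic dystrophy.

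Each value is the authors' FPKM (fragments per kilobase of transcript, scaled to library size), given once per group between 2 bounds whose level is not stated. The libraries of a group have no values of their own, so there was no replicate check and no test, and the depth in reads is unknown. A difference was called at least 2-fold from the log2 ratio of overexpression to control after adding 1 FPKM to each value, and separately where the bounds of the groups did not overlap. Overexpression was visible at the gene level, with Rbfox2 at 14.7 FPKM in MHC control and 293 FPKM under overexpression. Cardiomyocyte markers were abundant, among them Tnnt2, at 10609 FPKM in MHC control and 6917 FPKM under overexpression, and Myl2, at 24688 and 18007 FPKM. Myh6 is listed at 0 in both groups with the status HIDATA, which Cuffdiff gives to loci with too many fragments to estimate.

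Of the 10 genes, 1 was at least 2-fold apart, the insulin receptor Insr, which was lower in Rbfox2 OE. Among all 11695 genes compared, 17% were 2-fold apart, 6.95% higher and 10% lower in Rbfox2 OE. None of the 10 had separate bounds, against 16% of all genes (6.66% higher and 9.33% lower). At a 1.5-fold threshold Irs1 and Foxo1 joined Insr, 3 of 10, against 38.6% of all genes. At a 4-fold threshold 0 of the 10 genes were called, against 2.47% of all genes. The remaining 9 genes had log2 ratios from -0.47 (Trim63) to 0.71 (Foxo1). The median over the 10 was -0.06, and the median over all genes compared was also -0.06.

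Promoters of Trim63, Irs1 and Irs2 are shown because they alone among the promoters found for these genes hold either motif searched for. The sequences are from RefSeq on GRCm38.p6, which lists 8 promoters for 7 of the 10 genes and none for Insr, Foxo4 and Fbxo32. Each runs from 250 bases before RefSeq's start site to 50 bases after it. The motifs searched on both strands were the forkhead site GTAAACA, and CAAAACA, the core of insulin response elements. Capitals mark the matches, which read as the reverse complements TGTTTAC and TGTTTTG in the direction of transcription.
Trim63, chr4:134314870-134315169, plus strand: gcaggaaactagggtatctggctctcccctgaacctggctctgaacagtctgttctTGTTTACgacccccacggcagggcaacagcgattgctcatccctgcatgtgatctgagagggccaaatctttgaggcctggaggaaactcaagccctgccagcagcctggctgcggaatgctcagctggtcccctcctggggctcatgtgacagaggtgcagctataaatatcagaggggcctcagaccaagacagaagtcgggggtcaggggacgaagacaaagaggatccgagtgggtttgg
Irs1, chr1:82291390-82291689, minus strand: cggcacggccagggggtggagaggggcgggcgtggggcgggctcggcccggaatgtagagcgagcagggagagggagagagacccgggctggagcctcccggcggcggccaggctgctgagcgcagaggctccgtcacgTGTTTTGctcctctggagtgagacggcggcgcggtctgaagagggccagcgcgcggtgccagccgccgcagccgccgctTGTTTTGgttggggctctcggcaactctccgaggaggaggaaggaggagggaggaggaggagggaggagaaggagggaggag
Irs2, chr8:11008880-11009179, minus strand: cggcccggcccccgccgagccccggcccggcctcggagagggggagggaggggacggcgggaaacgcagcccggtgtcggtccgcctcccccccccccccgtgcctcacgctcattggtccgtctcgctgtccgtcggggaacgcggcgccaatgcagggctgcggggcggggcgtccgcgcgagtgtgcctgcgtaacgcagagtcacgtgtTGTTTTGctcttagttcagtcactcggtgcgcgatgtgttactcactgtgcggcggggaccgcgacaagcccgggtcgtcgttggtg
The Trim63 match starts 194 bases before the start site. Those of Irs1 start 111 and 32 bases before it, and that of Irs2 37 bases before it. The Irs2 sequence lies wholly upstream of the gene in GENCODE, which begins at 11008458, so its distance holds for RefSeq's start site only. Of all 32851 promoters in the table, 3.65% hold GTAAACA and 6.28% hold CAAAACA on either strand. In the expression values Irs1 and Irs2, which hold CAAAACA, were above the control. Trim63, which holds GTAAACA, was below it, and the bounds of all 3 genes overlapped between the groups. Of the genes whose promoters hold neither motif, Foxo1 was above the control, and Pik3r1, Igf1r and Foxo3 were below it. Their bounds overlapped too. A link between motif and direction was not tested. A match describes the letters and not binding.

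RBFOX proteins bind the hexamer TGCATG in RNA, written here with T for U, and its copies in the 3′ untranslated regions are shown for Insr and Foxo1, the genes with the largest differences, and for Fbxo32, which has the most copies. Each window is 22 bases of GENCODE M21 transcript sequence in the sense direction, with the hexamer in capitals and its GRCm38 position beside it.
Insr, chr8:3150981-3150986, minus strand: aattgttcTGCATGtataatac
Foxo1, chr3:52348759-52348764, plus strand: gcctggttTGCATGagaagacc
Fbxo32, chr15:58180649-58180654, minus strand: ggcacctgTGCATGctcagaac
Fbxo32, chr15:58180095-58180100, minus strand: tgccactaTGCATGctcttggc
Fbxo32, chr15:58178530-58178535, minus strand: ccctccttTGCATGttgaaatg
Fbxo32, chr15:58175979-58175984, minus strand: acctttctTGCATGatgaactg
In the transcript with the longest coding sequence, 7 of the 10 genes hold the hexamer in the 3′ untranslated region, with 14 copies in all, and Irs2, Foxo4 and Trim63 hold none. Among 10955 compared genes with a coding transcript that has a 3′ untranslated region, 31.8% hold it. These genes have long 3′ untranslated regions, with a median of 4508 bases against 957 bases for all genes. Per kilobase the counts are close, 0.337 copies in the 10 genes and 0.349 in all genes. Insr has 1 copy in 4747 bases, and the 573 genes with regions of 0.8 to 1.2 times that length have a median of 1 copy. The remaining copies were 3 in Pik3r1, 2 each in Irs1 and Foxo3, and 1 in Igf1r. Medians of genes with regions of like length were 2 copies for Fbxo32, Foxo1 and Igf1r. They were 1 copy for Pik3r1, Irs1, Foxo3 and Irs2, and 0 for Foxo4 and Trim63. Fbxo32, with 4 copies, was thus above its median, and Foxo1, with 1, was below its own.

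The insulin receptor is the tyrosine kinase that starts the cascade. Insr (ENSMUSG00000005534, GRCm38 chromosome 8, 3122061 to 3279617, minus strand, a protein-coding gene) stood at 27.4 FPKM in MHC control, with bounds of 13.6 to 41.2. In Rbfox2 OE it stood at 9.27 FPKM, with bounds of 3.39 to 15.1. The Rbfox2 OE value was thus 66.2% below the control, a log2 ratio of -1.47, and 421 of the 11695 genes compared had a lower one. The bounds overlapped over 1.49 FPKM, and the nearest and farthest pairs of bounds gave log2 ratios of 0.14 and -3.26. The bounds of Insr were wide: the upper one lay 50.2% above the control value and 63.4% above the Rbfox2 OE value, against 28.5% to 34.7% for the other 9 genes. Over all genes compared, the median distance was 38.4% in the control and 39.3% in Rbfox2 OE. Among the 1985 genes at least 2-fold apart, 501 (25.2%) likewise had overlapping bounds. Insr has 5 annotated transcripts, and its level as a whole gene does not show which receptor isoform was present.

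Igf1r encodes the related receptor for insulin-like growth factors. Igf1r (ENSMUSG00000005533, chromosome 7, 67952827 to 68233668, plus strand) stood at 2.60 FPKM in MHC control (bounds 1.72 to 3.49) and 2.48 FPKM under overexpression (bounds 1.67 to 3.29). The groups overlapped over nearly the whole range of the bounds. Its log2 ratio of -0.05 turns to 0.01 on centring on the median gene and to 0.06 on rescaling without mitochondrial and the most abundant genes, so it has no fixed direction. Insr was 10.5 times as abundant as Igf1r per length in the control and 3.74 times in Rbfox2 OE. Insr accounted for 91.3% of their summed FPKM in MHC control and 78.9% in Rbfox2 OE.

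**Figure D1:**
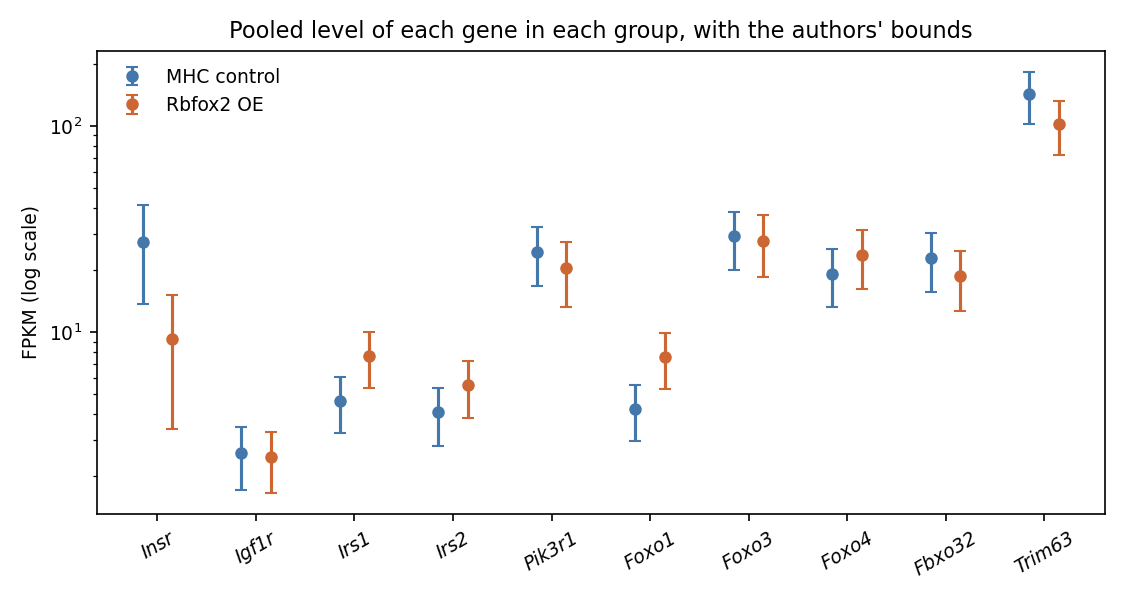
FPKM (log axis) of the 10 genes in MHC control and Rbfox2 OE. Points are the authors' pooled values and bars their lower and upper bounds. The bounds of the groups overlap for each gene, least for Foxo1, and Insr shows the widest bars and the largest gap between points.

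Irs1 and Irs2 are the docking proteins that carry the signal from the receptors to phosphoinositide 3-kinase. Irs1 (ENSMUSG00000055980, chromosome 1, 82233101 to 82291416, minus strand) stood at 4.65 FPKM in MHC control (bounds 3.24 to 6.07) and 7.68 FPKM under overexpression (bounds 5.38 to 9.99). The Rbfox2 OE value was 65.2% higher, a log2 ratio of 0.62, and the bounds overlapped over 0.689 FPKM. Irs2 (ENSMUSG00000038894, chromosome 8, 10984681 to 11008458, minus strand), itself a known FoxO target in liver, stood at 4.08 FPKM (bounds 2.81 to 5.36) and 5.56 FPKM (bounds 3.85 to 7.27), a log2 ratio of 0.37. Both substrates were thus above the control, while the receptor Insr was below it, and none of the 3 had separate bounds. The summed FPKM of Irs1 and Irs2 was 8.74 in the control and 13.2 in Rbfox2 OE, a ratio of 1.52, and Irs1 made up 53.2% and 58.0% of it.

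Pik3r1 encodes the regulatory subunits of phosphoinositide 3-kinase that hold the catalytic subunit and dock on Irs proteins. Pik3r1 (ENSMUSG00000041417, chromosome 13, 101680563 to 101768217, minus strand) stood at 24.5 FPKM in MHC control (bounds 16.8 to 32.2) and 20.4 FPKM under overexpression (bounds 13.3 to 27.5). The log2 ratio was -0.25, and the bounds shared 10.7 FPKM. RefSeq gives this gene 2 start sites, and the gene-level value does not tell their products apart.

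The 3 FoxO genes encode forkhead transcription factors that Akt inhibits. Foxo1 (ENSMUSG00000044167, chromosome 3, 52268336 to 52353221, plus strand) stood at 4.27 FPKM in MHC control (bounds 2.96 to 5.58) and 7.60 FPKM under overexpression (bounds 5.32 to 9.88). The Rbfox2 OE value was 78.0% higher, a log2 ratio of 0.71, and 1492 of the genes compared had a higher one. Its bounds overlapped by 0.263 FPKM, the smallest overlap of the 10 genes, and became separate on rescaling without mitochondrial and the most abundant genes, a setting in which 15.8% of all genes had separate bounds. Foxo3 (ENSMUSG00000048756, chromosome 10, 42181841 to 42276755, minus strand) stood at 29.2 FPKM (bounds 20.0 to 38.4) and 27.7 FPKM (bounds 18.6 to 36.9). Its log2 ratio of -0.07 became 0.08 on the same rescaling. Foxo4 (ENSMUSG00000042903, chromosome X, 101254528 to 101260873, plus strand) stood at 19.2 FPKM (bounds 13.2 to 25.2) and 23.7 FPKM (bounds 16.2 to 31.2), a log2 ratio of 0.29.

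Foxo3 was the most abundant of the FoxO genes in both groups and Foxo1 the least abundant of these 3. Foxo1 made up 8.11% of their summed FPKM in MHC control and 12.9% in Rbfox2 OE, Foxo3 55.4% and 47.0%, and Foxo4 36.5% and 40.2%. The sum itself was 52.7 FPKM in MHC control and 59.1 FPKM under overexpression. The fourth family member, Foxo6, was lower still, at 2.26 FPKM in MHC control (bounds 1.41 to 3.11) and 0.635 FPKM under overexpression (bounds 0.326 to 0.944), 3.56-fold lower with separate bounds. With 1 FPKM added, more than its Rbfox2 OE value, its log2 ratio was -0.995, so it was not called at 2-fold.

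Fbxo32 and Trim63 are muscle-specific ubiquitin ligases that FoxO factors are known to induce in atrophy. Fbxo32 (ENSMUSG00000022358, chromosome 15, 58175879 to 58214932, minus strand), the substrate-binding part of a cullin ligase, stood at 23.0 FPKM in MHC control (bounds 15.6 to 30.4) and 18.7 FPKM under overexpression (bounds 12.7 to 24.8). The log2 ratio was -0.28. Trim63 (ENSMUSG00000028834, chromosome 4, 134315120 to 134329629, plus strand), a RING ligase of the sarcomere, stood at 142 FPKM in MHC control (bounds 102 to 183) and 102 FPKM under overexpression (bounds 72.7 to 132). The Rbfox2 OE value was 28.0% lower, a log2 ratio of -0.47. Fbxo32 stayed below the control on centring on the median gene (-0.22) and on rescaling without mitochondrial and the most abundant genes (-0.14). So did Trim63, at -0.41 and -0.32. The other alternatives tried could not change the sign of a ratio. The bounds of both genes overlapped widely, over 9.16 FPKM for Fbxo32 and 30.6 FPKM for Trim63. Trim63 was 6.18 times as abundant per length as Fbxo32 in the control and 5.47 times in Rbfox2 OE.

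**Figure D2:**
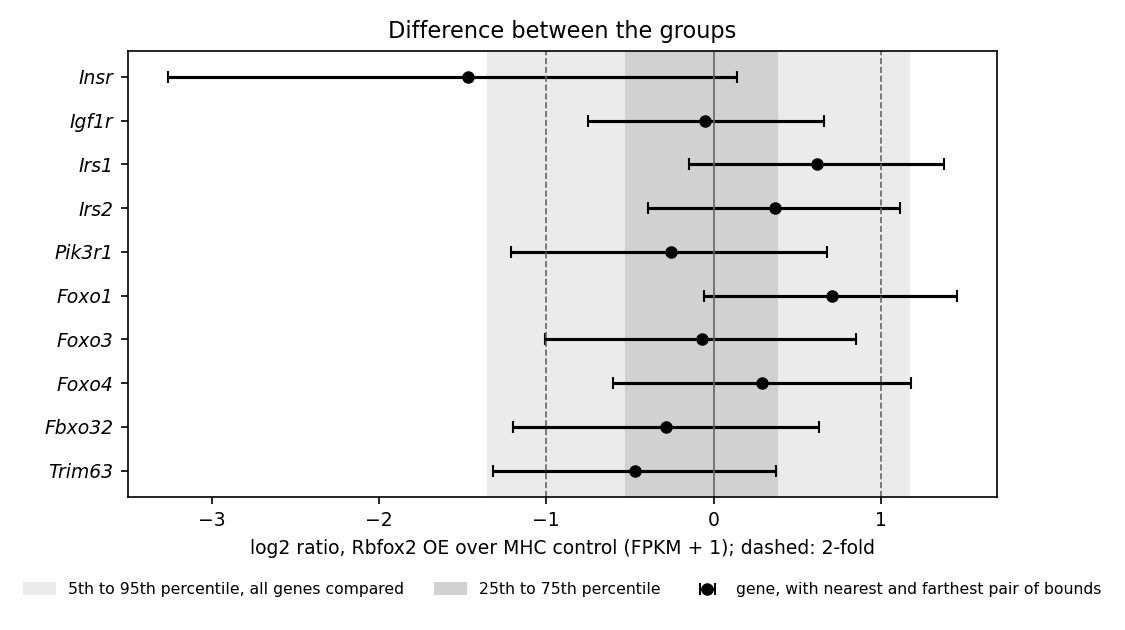
Log2 ratio of overexpression to control, with 1 FPKM added, for the 10 genes. Bars join the ratios from the nearest and farthest pair of bounds, and grey bands span percentiles of all 11695 genes compared. Insr, at -1.47, lies outside the wide band, whose lower edge is -1.35, and its bar crosses 0 like the others.

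By level per length, Trim63 ranked first in both groups and Igf1r last, and the bounds of Trim63 met those of no other member in either group. In the control, Foxo3, Insr, Pik3r1, Fbxo32 and Foxo4 followed at 19.2 to 29.2 FPKM with bounds that all overlapped. Irs1, Foxo1, Irs2 and Igf1r lay at 2.60 to 4.65 FPKM, also with overlapping bounds. In Rbfox2 OE, Insr stood at rank 6 in place of rank 3. Its bounds no longer overlapped those of Foxo3 and Foxo4 but did overlap those of Irs1, Foxo1 and Irs2. The bounds of Igf1r, which met those of 3 members in the control, met those of 0 in Rbfox2 OE. Insr lay at percentile 78.8 of all compared genes in the control and 56.0 in Rbfox2 OE, Foxo1 at 32.6 and 50.1, and Trim63 at 95.5 and 94.5.

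Other genes of the pathway were compared from 4 lists. For each list, the shares over all genes were 6.95% at least 2-fold higher and 10% lower. With separate bounds they were 6.66% higher and 9.33% lower. Of 45 compared genes from the ligands and receptors to Akt and glucose transport, 3 were at least 2-fold higher and 4 lower, and 2 and 3 had separate bounds in those directions. The list's median log2 ratio was 0.08. The lowest log2 ratio was that of Tbc1d4, the Akt substrate that restrains movement of the glucose transporter GLUT4 to the cell surface. Tbc1d4 stood at 28.0 FPKM in MHC control (bounds 19.4 to 36.6) and 3.48 FPKM under overexpression (bounds 2.26 to 4.70), a log2 ratio of -2.70. Grb14, an adaptor that inhibits the insulin receptor, stood at 119 FPKM (bounds 79.8 to 157) and 25.8 FPKM (bounds 16.8 to 34.7), a log2 ratio of -2.16. Igf2r, the receptor that clears insulin-like growth factor II, stood at 34.7 and 8.03 FPKM, a log2 ratio of -1.98. Unlike Insr, these 3 genes had bounds well apart.

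The genes with separate bounds above the control in this list were the growth factor binding proteins Igfbp7, at 80.4 and 287 FPKM, and Igfbp3, at 9.33 and 23.7 FPKM. Igfbp4 (log2 ratio 1.34) and the phosphatase gene Ptpn11 (-1.12) also passed 2-fold, with overlapping bounds. Both are named after their values were seen, as are the next genes. The kinases Akt1 and Akt2 stood at 94.2 and 142 FPKM in MHC control and 57.3 and 108 FPKM under overexpression, log2 ratios of -0.71 and -0.40. Slc2a4, which encodes GLUT4, stood at 283 and 146 FPKM, a log2 ratio of -0.95. The bounds of Akt1, Akt2 and Slc2a4 overlapped.

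Among 21 genes of mTOR signalling and translation, 1 was at least 2-fold higher and 4 lower, each with separate bounds, and the median was -0.28. Lower were Ulk1, a kinase that starts autophagy (34.5 and 11.3 FPKM, log2 ratio -1.53), and Eef2k, the kinase of elongation factor 2 (19.7 and 6.71 FPKM, -1.43). So were Tsc2, a brake on mTOR complex 1 (23.7 and 8.69 FPKM, -1.35), and the initiation scaffold Eif4g1 (169 and 83.7 FPKM, -1.003). Ddit4, a stress-induced inhibitor of mTOR complex 1, was higher, at 18.9 FPKM in MHC control and 49.0 FPKM under overexpression, a log2 ratio of 1.33. The lower genes thus included Eif4g1, which promotes translation, beside Tsc2 and Eef2k, which restrain growth signalling or translation.

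Of 30 compared FoxO regulators and targets, 3 were at least 2-fold higher and 2 lower, and 3 and 4 had separate bounds, with a median of -0.12. Higher were the cell cycle inhibitor Cdkn1a (38.0 and 112 FPKM, log2 ratio 1.54), the lysosomal protease Ctsl (106 and 233 FPKM, 1.13) and the stress gene Gadd45a (15.2 and 33.9 FPKM, 1.11). Lower were Prkaa2, the catalytic AMP kinase subunit of muscle (27.9 and 7.91 FPKM, -1.70), and the mitochondrial coactivator gene Ppargc1a (57.4 and 20.3 FPKM, -1.46). The FoxO target Sesn1 (71.7 and 37.7 FPKM, -0.91) had separate bounds and was not called at 2-fold. Foxo6 also had separate bounds and missed the 2-fold call through the FPKM added. Pdk4, a FoxO target of fuel choice named after its value was seen, stood at 152 FPKM in MHC control and 205 FPKM under overexpression, with overlapping bounds. Of the 30 genes, regulators and targets together, 13 had log2 ratios above 0 and 17 below. The part of FoxO factors in these differences was not tested.

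Of 28 other ubiquitin ligase and ubiquitin genes, 0 were at least 2-fold higher and 4 lower, and 5 had separate bounds, all lower, with a median of -0.43. In either direction these were 14.3% and 17.9% of the list, against 17% and 16% of all genes. In the lower direction, which holds all the calls of this list, the shares of all genes were 10% and 9.33%. No test of the list was run. Asb2, a muscle cullin ligase subunit, stood at 256 FPKM in MHC control (bounds 184 to 328) and 56.3 FPKM under overexpression (bounds 40.0 to 72.7), a log2 ratio of -2.16. Trim55 (MuRF2), a relative of Trim63, stood at 42.1 FPKM (bounds 28.6 to 55.7) and 16.2 FPKM (bounds 10.2 to 22.2), a log2 ratio of -1.33. The ligase Ubr2 (19.7 and 8.49 FPKM, -1.12) and the conjugating enzyme Ube2d1 (45.6 and 22.4 FPKM, -0.99) were also lower with separate bounds. The fifth with separate bounds was the ubiquitin gene Ubb (-0.95), and Fbxo31 (-1.11) passed 2-fold with bounds reaching 0 in both groups, both named after their values were seen. Trim54 (MuRF3), also named after its value was seen, stood at 206 FPKM in MHC control and 136 FPKM under overexpression. Its log2 ratio was -0.60, with overlapping bounds as in Trim63. The difference in Trim63 was of the same sign as in Trim55 and Trim54, smaller than in Trim55 and nearer to that in Trim54. Over the 4 lists, 21 of 124 genes (16.9%) were at least 2-fold apart and 22 (17.7%) had separate bounds, near the shares of 17% and 16% over all genes.

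**Figure D3:**
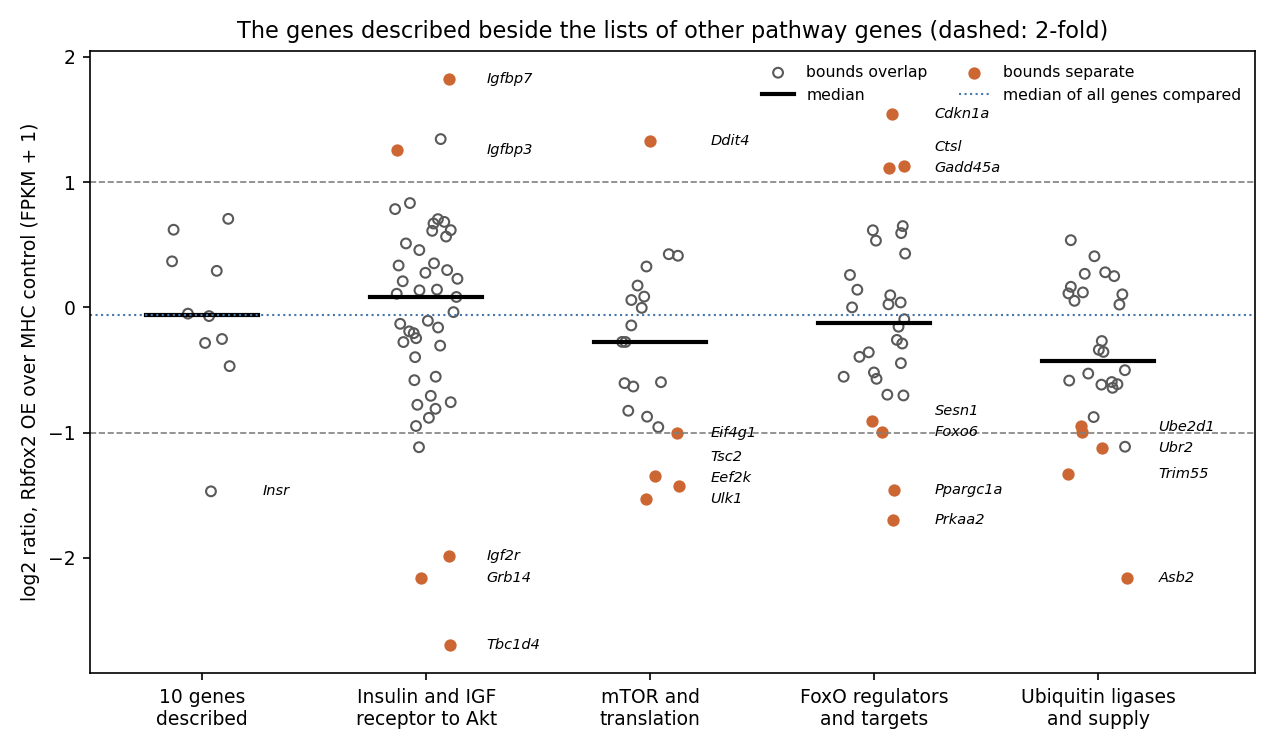
Log2 ratio of overexpression to control (1 FPKM added) for the 10 genes described and for the compared members of 4 lists. Each point is a gene, filled where the authors' bounds are separate, and black lines are medians. The 10 genes hold no filled point, and the ubiquitin list has filled points below 0 only.

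Markers of other cell types were higher in Rbfox2 OE. All 8 endothelial markers were above the control, with a summed level of 499 FPKM in MHC control and 747 FPKM under overexpression, a ratio of 1.497. All 8 fibroblast markers (224 and 538 FPKM), all 8 macrophage and leukocyte markers (87.9 and 316 FPKM) and all 8 smooth muscle and pericyte markers (145 and 327 FPKM) were above it too. So were all 5 red blood cell markers (56.6 and 295 FPKM) and all 5 atrial markers (241 and 3154 FPKM). The 6 adipocyte markers summed to 1.15 and 3.03 FPKM, with Lep listed at 0 in the control. Of all 11695 genes compared, 5406 were above the control. At least 2-fold higher were 7 fibroblast, 7 macrophage and leukocyte, 2 smooth muscle and pericyte and 1 endothelial marker, against 6.95% of all genes. Separate bounds were found for 6, 7, 3 and 2 of them in that order, against 6.66% of all genes. The endothelial marker Kdr was nearly level, with a log2 ratio of 0.03. Of the 7 cardiomyocyte markers with an estimate, 6 were lower, with summed levels in a ratio of 0.619 and log2 ratios from -2.42 to 0.60. Insr, at -1.47, lay below their median of -0.62, and of these markers only Pln (-2.42) was lower. Irs1, Irs2, Foxo1 and Foxo4 were on the side of the endothelial, fibroblast and leukocyte markers, and Insr, Pik3r1, Fbxo32 and Trim63 on that of most cardiomyocyte markers. Igf1r and Foxo3 had no fixed direction under the scalings. The part of these markers in the members' differences was not tested. In such bulk samples, fewer cells of a type and less RNA per cell cannot be told apart.

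**Figure D4:**
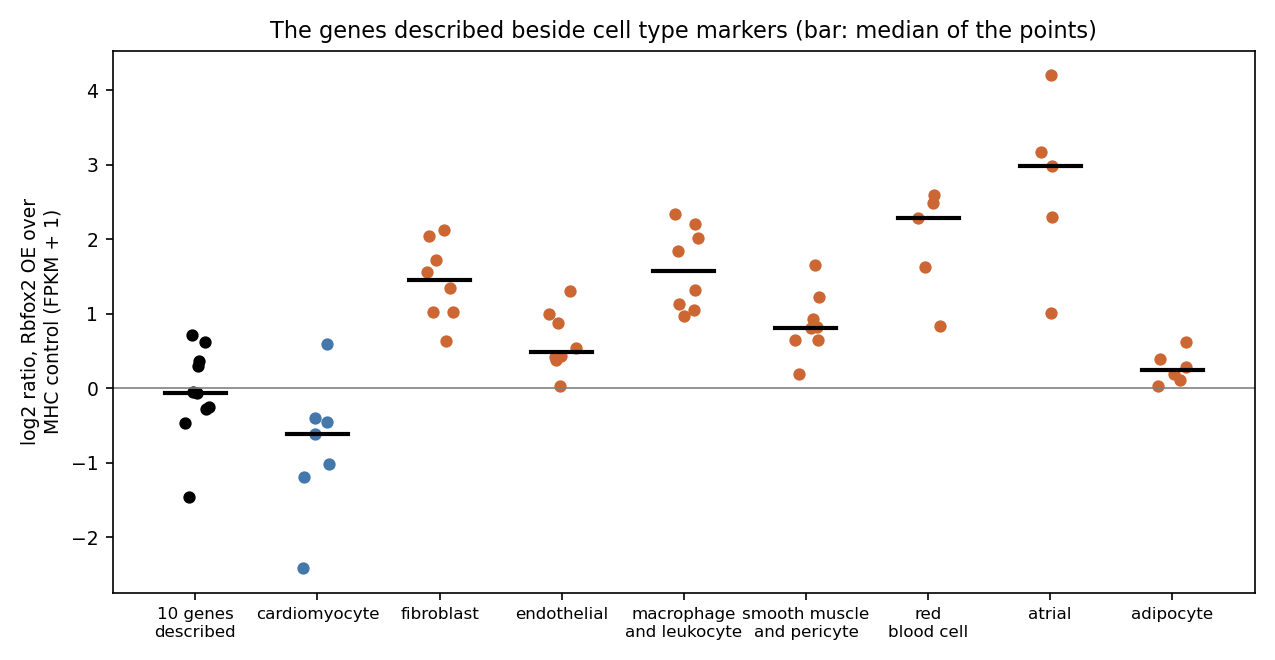
Log2 ratio of overexpression to control (1 FPKM added) for the 10 genes described and for markers of 8 cell types. Each point is a gene and each bar the median of the points. Markers of non-cardiomyocyte types and of atria lie above 0, most cardiomyocyte markers lie below it, and the 10 genes lie on both sides.

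The scaling of the groups bears on small differences. Of the 2-fold genes over the whole table, 59.0% were lower as deposited and 46.3% after rescaling without mitochondrial genes and the 10 most abundant genes, which moved the median gene from -0.06 to 0.07. Insr had log2 ratios from -1.56 to -1.18 over the 5 alternatives tried, Irs1 from 0.39 to 0.76 and Foxo1 from 0.44 to 0.84. Reads of neighbours could also enter: 6 of the 10 genes overlap another annotated gene, 5 of them at least 1 on the opposite strand. Whether the counting used strand is not given in the sources used here. Igf1r, Foxo3, Foxo4 and Trim63 overlap none.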

How the data were processed

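Polyadenylated RNA of isolated mouse cardiomyocytes was sequenced from stranded libraries, per the labels' protocols, with 2 libraries titled as MHC and 2 as RbFox2. The values are FPKM with lower and upper bounds, deposited by the authors as a Cuffdiff gene table with 1 value per group, per the file headers. The submitters' processing notes name STAR 2.4.2a and Cuffdiff 2.2.1, and GRCm38. The depth of the libraries, the annotation and the level of the bounds are not given in the sources used here.

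Where several rows had 1 gene name (110 names), their values were summed. Genes whose groups averaged at least 1 FPKM, with an estimate in both groups, were compared (11695 genes). The log2 ratio was taken after adding 1 FPKM to each value, so folds of low genes are understated. Calls were a 2-fold difference and, separately, bounds that did not overlap. No test was possible on 1 value per group. The calculation was tested on simulated data.

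Coordinates, overlaps and transcripts came from GENCODE M21 on GRCm38, in which 99.2% of the identifiers were found. Promoters came from RefSeq. The members and lists were chosen with earlier results of these data known. The genes named are the 10 members, Rbfox2 and, from each of the 4 lists, up to 4 in each direction with separate bounds, ranked by the log2 ratio. Of these 21 list genes, 14 overlap another annotated gene, 9 of them at least 1 on the opposite strand. Other genes named after their values were seen are marked as such. Other settings tried concerned scaling, thresholds, the value added, status and repeated names. Python 3.11.15, pandas 2.3.3 and numpy 2.4.6 were used.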

Additional observations from a re-analysis of the deposited data

How the results depend on the processing

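No paired analysis was possible because each group has a single deposited value, and the numbered libraries have none. Leaving out each library was not run for that reason. The log2 ratio of each of the 10 genes stayed inside the range of its bounds under all 5 alternatives. That range is wide beside the log2 shifts of 0.06 and 0.16 from centring and rescaling, so this check could hardly fail. Igf1r and Foxo3, near 0, changed sign with the scaling. Insr was the 1 gene at least 2-fold apart under each alternative that kept this threshold. A 1.5-fold threshold gave 3 of the 10 genes (Insr, Irs1 and Foxo1), against 38.6% of all genes, and 54 of the other pathway genes. A 4-fold threshold gave 0 of the 10 and 3 of the other pathway genes, against 2.47% of all genes. Rescaling without mitochondrial genes and the 10 most abundant genes gave 1 of the 10 genes separate bounds (Foxo1), against 15.8% of all genes. The unknown depth limits the lowest values most.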
